A study of Mus musculus with 12 samples.

Results

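The myeloid C-type lectins are cell-surface receptors of macrophages, monocytes, neutrophils and dendritic cells, and 9 genes of the family were followed here in mouse microglia. The genes were Clec7a, Clec4a1, Clec4a2, Clec4a3, Clec4d, Clec4e, Clec4n, Clec5a and Clec12a. Their regions were all those of the deposited signal table whose nearest gene carried such a name. That rule found 32 of 104981 regions, for 8 of the 9 genes and of 18207 gene names in all. No region carried the name Clec4e. Acetylation of histone H3 at lysine 27 (H3K27ac), which marks promoters and enhancers in use, was measured by chromatin immunoprecipitation with sequencing in microglia, the macrophages that live in the brain, sorted from the cortex of mice at postnatal day 30. Each mouse had been given interleukin-33 (IL-33), a cytokine released by damaged cells, or vehicle into a cerebral ventricle on 1 side 4 h before. The H3K27ac libraries, 1 per mouse, came from 4 males (mice 1, 2, 5 and 6) and 4 females (mice 3, 4, 7 and 8), and the strain and genotype are not given in the labels. The labels do not say which mouse received IL-33, so the 8 libraries were grouped by sex alone, and IL-33 was read from the authors' deposited table of IL-33 against vehicle.

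C-type lectin receptors bind sugars and other ligands on microbes and dying cells. The activating receptors signal through the kinase Syk, either by a tyrosine motif in their own tail (Clec7a, also called Dectin-1) or through the adaptors Fcer1g or Tyrobp, and pass the signal by Card9, Bcl10 and Malt1 to NF-kB. The inhibitory receptors carry a tail motif that recruits the phosphatases Ptpn6 and Ptpn11. In microglia Clec7a is known as a gene of the disease-associated state.

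Depth was 5160915 to 10019606 tags in the male and 2155209 to 4133042 in the female libraries, and a region held a median of 5 to 10 reads in the male and 2 to 4 in the female libraries. Tags were scaled by the authors to 10000000 per library, so that 1 read was worth 0.998 to 4.64 tags and 3 reads, taken as the floor, 2.99 to 13.9 tags. The male libraries carry a single index and the female libraries a dual index with another date, so sex and library batch cannot be told apart. Every region spans 500 bp, so the tags of regions can be compared as levels per length. Marker genes of microglia had signal in 10 of 10 cases, with summed levels of 20539 to 24793 tags in male and 25215 to 33552 tags in female libraries. Summed levels of monocyte markers were 1165 to 1285 and 1168 to 1544 tags. Of these markers 7 of 10 had signal, and Chil3 and Fn1 were among those at 0. Those with signal include Ly6c2, with means of 277 tags in male and 202 in female libraries, and Ccr2, with 152 and 209. Neutrophil markers summed to 660 to 805 and 782 to 844 tags, nearly all of it at Csf3r, whereas S100a8, S100a9 and Ly6g held 4, 2 and 9 reads over the 8 libraries together. Border-associated macrophage markers summed to 1786 to 2147 and 2277 to 2737 tags, with none at 0. In such bulk samples, more cells with a mark and more mark per cell cannot be told apart.

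All 9 genes lie on chromosome 6, in 3 places. Clec5a (chr6:40574898-40585805) stands apart from the others, and its bounds held 4 regions. Of those, 2 carried its name and the others that of Olfr460. Clec4a1, Clec4a3, Clec4a2, Clec4n, Clec4d and Clec4e follow each other in this order within 368 kb (chr6:122921848-123289871, GRCm38.p6), a stretch that held 27 regions. Of those, 21 belonged to the lectins followed here and the others to their relatives Clec4a4 and Clec4b2. Clec12a and Clec7a bound another stretch of 123 kb (chr6:129349783-129472785) with 18 regions, of which 3 were theirs and the others belonged to Clec12b, Clec1a, Clec1b and Clec9a.

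The promoters of 6 members are shown because they carry the contrast between the members: the 5 windows of Clec4a2, Clec4a3, Clec4a1, Clec5a and Clec7a overlap a region of the signal table, and that of Clec4e overlaps none, as at Clec4d and Clec12a. Each runs 5′ to 3′ from 250 bases before to 50 bases after the start of transcription (RefSeq, GRCm38.p6). Capitals mark matches, on either strand, to TGANTCA (the AP-1 motif), GAGGAA (a core of the motif of PU.1, the lineage factor of macrophages) or TTGCNNAA (a C/EBP motif).
Clec4a2, chr6:123122440-123122739, plus strand: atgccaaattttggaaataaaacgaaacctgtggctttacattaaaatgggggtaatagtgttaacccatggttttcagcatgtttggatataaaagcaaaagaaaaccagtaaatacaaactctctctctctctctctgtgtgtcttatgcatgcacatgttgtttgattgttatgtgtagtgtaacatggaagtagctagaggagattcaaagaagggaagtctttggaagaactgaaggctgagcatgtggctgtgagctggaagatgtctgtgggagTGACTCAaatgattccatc
Clec4a3, chr6:122952394-122952693, plus strand: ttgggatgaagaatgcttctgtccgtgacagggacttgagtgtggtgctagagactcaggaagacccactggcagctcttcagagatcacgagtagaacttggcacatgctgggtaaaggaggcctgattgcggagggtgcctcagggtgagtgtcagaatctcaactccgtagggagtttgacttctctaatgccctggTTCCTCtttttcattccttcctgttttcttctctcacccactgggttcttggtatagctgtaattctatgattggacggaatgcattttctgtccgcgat
Clec4a1, chr6:122921598-122921897, plus strand: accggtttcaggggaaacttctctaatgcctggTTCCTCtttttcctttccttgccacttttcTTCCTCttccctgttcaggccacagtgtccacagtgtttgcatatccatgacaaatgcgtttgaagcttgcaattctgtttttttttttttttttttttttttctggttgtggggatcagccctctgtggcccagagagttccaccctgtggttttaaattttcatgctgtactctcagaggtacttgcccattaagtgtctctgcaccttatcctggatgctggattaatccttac
Clec5a, chr6:40585756-40586055, minus strand: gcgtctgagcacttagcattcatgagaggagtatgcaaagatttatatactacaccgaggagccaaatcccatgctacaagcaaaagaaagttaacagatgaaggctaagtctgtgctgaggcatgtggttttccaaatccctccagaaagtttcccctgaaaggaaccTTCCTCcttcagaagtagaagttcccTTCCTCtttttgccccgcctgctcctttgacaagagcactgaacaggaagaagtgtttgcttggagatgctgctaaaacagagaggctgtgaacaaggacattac
Clec7a, chr6:129472730-129473029, minus strand: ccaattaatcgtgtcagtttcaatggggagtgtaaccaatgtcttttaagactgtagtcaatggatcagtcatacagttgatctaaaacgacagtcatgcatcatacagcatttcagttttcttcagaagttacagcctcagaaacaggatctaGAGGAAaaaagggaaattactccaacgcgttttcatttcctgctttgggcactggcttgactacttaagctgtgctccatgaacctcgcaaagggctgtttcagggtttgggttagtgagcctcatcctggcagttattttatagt
Clec4e, chr6:123289822-123290121, minus strand: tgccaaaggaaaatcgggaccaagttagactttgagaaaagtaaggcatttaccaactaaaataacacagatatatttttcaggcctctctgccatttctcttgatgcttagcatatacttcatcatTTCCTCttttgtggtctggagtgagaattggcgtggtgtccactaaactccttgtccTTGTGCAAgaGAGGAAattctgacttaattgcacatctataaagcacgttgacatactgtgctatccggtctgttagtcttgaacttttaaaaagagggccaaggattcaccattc
The window of Clec4a2 held an AP-1 match, which 7.81% of all 32851 promoter windows of this length hold. The windows shown for Clec4a3, Clec4a1, Clec5a, Clec7a and Clec4e each held at least 1 PU.1 match, found in 28.3% of all windows. A second Clec4a3 window (chr6:122952265-122952564), which also overlaps the promoter region, held no match. Among the windows that overlap no region, that of Clec4d held PU.1 matches and that of Clec12a matches to all 3 motifs. The Clec4e window also held a C/EBP match, found in 10.8% of all windows. The NF-kB consensus, present in 6.93% of all windows, was in none of the 10 windows found for 8 of the 9 members. These are matches of letters only. Clec4n has no entry in the promoter table.

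H3K27ac at the lectins was strongest at Clec4a2 and Clec4a3, lower at Clec4a1 and Clec5a, and near the floor at Clec7a, Clec12a, Clec4d and Clec4n. The 32 regions fell within 1000 bp of a transcription start site (TSS) in 7 cases, between 1000 and 3000 bp in 6, and beyond 3000 bp in 19. The mean level over the 8 libraries reached 10 tags in 16 regions, 5 of them at Clec4a3, 4 each at Clec4a2 and Clec5a, 2 at Clec4a1 and 1 at Clec7a. For reference, the median level was 37.9 tags over the 22160 regions within 1000 bp of any TSS and 7.15 tags over the 72994 regions beyond 3000 bp.

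**Figure D1:**
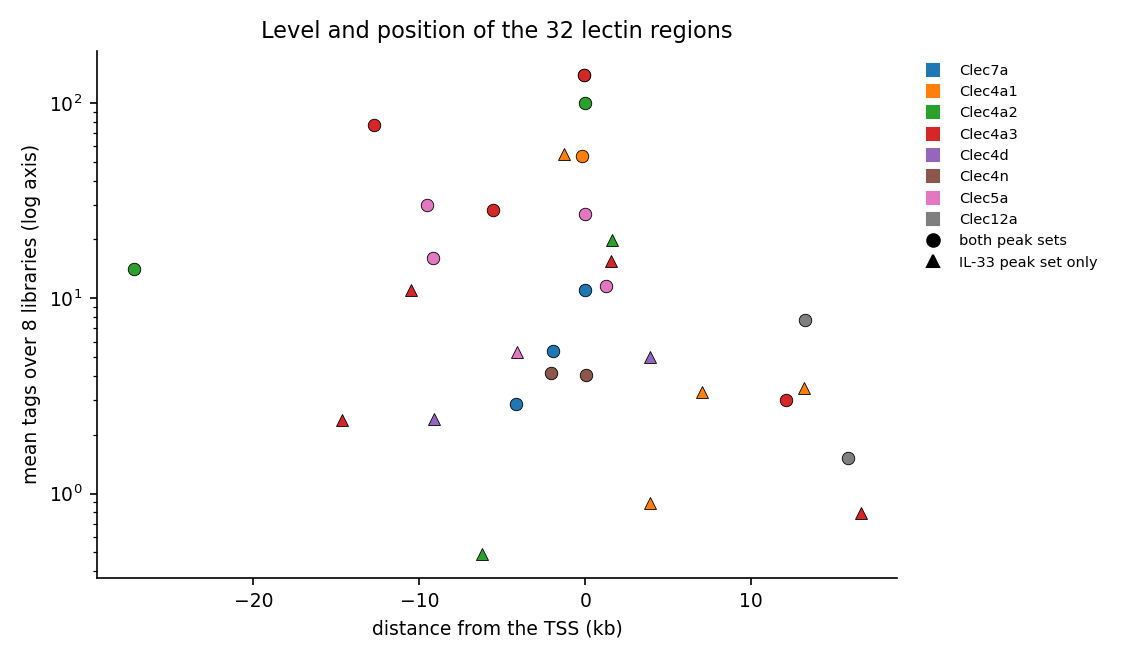
Mean H3K27ac level of each of the 32 lectin regions (tags per 500 bp, log axis) against its distance from the TSS of its gene (kb), coloured by gene, with circles for regions in both of the authors' peak sets and triangles for regions in the IL-33 peak set only. Near 0 kb the Clec4a2 point of 139 tags lies under that of Clec4a3, also 139 tags; the Clec4a regions are at the top, and no region of Clec4d, Clec4n or Clec12a reaches 10 tags.

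The plot of level against distance shows that regions of more than 50 tags were all regions of Clec4a genes, and that the highest of them were at promoters. A region away from promoters, 12.7 kb before the Clec4a3 TSS, also stood there.

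Among the inhibitory-type members, Clec4a2 encodes DCIR, a dendritic cell and macrophage receptor with an inhibitory tail motif. Its region 43 bp from the TSS (chr6:123122397-123122897), the highest of all lectin regions, held 160, 171, 64.0 and 58.1 tags in males 1, 2, 5 and 6. In females 3, 4, 7 and 8 it held 211, 269, 97.6 and 83.5 tags. The 4 values of mice 1, 2, 3 and 4 all lay above the 4 of mice 5, 6, 7 and 8, and the male and female values overlapped. This split of the mice, also described at other regions below, was chosen after the values were seen, and no label names it. The mean was 139 ± 76.0 tags (SD, n = 8), at percentile 86.3 among regions within 1000 bp of a TSS.

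A second promoter region of Clec4a2 (chr6:123123033-123123533), 33 bp from another annotated start, held 116, 65.3, 75.5 and 85.3 tags in the male mice. It held 120, 160, 75.3 and 102 tags in the female mice. Here mice 1, 2, 3 and 4 did not stand apart, since mouse 2 had a value below that of mouse 8.

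Clec4a3 encodes a close relative of DCIR. Its promoter region (chr6:122952336-122952836) held 130, 87.1, 150 and 138 tags in males 1, 2, 5 and 6 and 117, 126, 167 and 195 tags in females 3, 4, 7 and 8. Mouse 2 was lowest and mouse 8 highest, and the sexes overlapped. The mean of 139 ± 32.7 tags (SD, n = 8) was the same as that of Clec4a2 with a smaller spread between mice. Clec4a3 was also the member with the most regions, 8, with 1281 reads in all. The region 12.7 kb before its TSS (chr6:122939567-122940067) held 112, 89.3, 61.9 and 52.3 tags in the male mice and 76.3, 75.0, 72.5 and 78.9 tags in the female mice. The female values lay within the range of the male values.

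Clec4a1, another DCIR relative, lies next to Clec4a3. Its promoter region (chr6:122921383-122921883) held 66.9, 57.3, 56.6 and 46.5 tags in males 1, 2, 5 and 6 and 32.3, 65.3, 72.5 and 27.8 tags in females 3, 4, 7 and 8, with a mean of 53.1 ± 16.3 tags (SD, n = 8). The region 1261 bp before the TSS (chr6:122920337-122920837) was as strong, with 69.9, 57.3, 28.3 and 21.3 tags in the male mice and 103, 99.2, 33.5 and 23.2 tags in the female mice. At this second region mice 1, 2, 3 and 4 again lay above mice 5, 6, 7 and 8, which was not so at the promoter itself. The Clec4a genes are close paralogs, and no source used here says how reads that map to more than 1 of them were handled.

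Clec12a, an inhibitory receptor for uric acid crystals, had 2 regions and none within 3000 bp of its TSS. The stronger, 13.2 kb downstream in its last intron (chr6:129363223-129363723), held 11.0, 4.58, 0 and 1.94 tags in males 1, 2, 5 and 6 and 17.6, 14.5, 2.79 and 9.28 tags in females 3, 4, 7 and 8. These values rest on 31 reads, and all but those of mice 1, 2, 3 and 4 were below the floor of 3 reads.

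Of the activating members, Clec5a, a receptor that signals through Tyrobp, had the most H3K27ac. Its promoter region (chr6:40585586-40586086) held 28.9, 24.1, 15.7 and 23.3 tags in males 1, 2, 5 and 6 and 11.7, 36.3, 39.0 and 37.1 tags in females 3, 4, 7 and 8. Mouse 3 was the lowest and the other female mice were the highest. The strongest Clec5a region, with a mean of 29.99 ± 24.04 tags (SD, n = 8), was 9.5 kb before the TSS (chr6:40595076-40595576). It held 59.9, 41.2, 10.5 and 11.6 tags in the male mice and 49.9, 55.7, 11.2 and 0 tags in the female mice, so that mice 1, 2, 3 and 4 all lay above mice 5, 6, 7 and 8. A region 9.2 kb before the TSS overlaps it and shares reads with it, and is the only such overlap among the lectin regions.

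Clec7a, the receptor for fungal beta-glucan, had a promoter region (chr6:129472566-129473066) with 5.99, 6.87, 8.39 and 11.6 tags in males 1, 2, 5 and 6 and 41.1, 0, 13.9 and 0 tags in females 3, 4, 7 and 8. These values rest on 45 reads. The female mean of 13.8 ± 19.4 tags (SD, n = 4) came from mouse 3, without which it was 4.65 ± 8.05 tags (SD, n = 3). The level, at percentile 27.7 among regions within 1000 bp of a TSS, was below the median of such regions.

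Clec4n (Dectin-2, which binds fungal mannan), Clec4d and Clec4e (Mincle, which binds a glycolipid of mycobacteria) signal through Fcer1g, and had the least signal. The Clec4n promoter region (chr6:123229625-123230125) held 2, 3.44, 9.44 and 5.81 tags in males 1, 2, 5 and 6 and 8.80, 0, 2.79 and 0 tags in females 3, 4, 7 and 8. Its other region, 2051 bp before the TSS (chr6:123227542-123228042), had a mean of 4.14 ± 5.01 tags (SD, n = 8), with 0 in mice 3, 4 and 6. The stronger Clec4d region, 3.92 kb downstream of its TSS (chr6:123265780-123266280), held 7.98, 4.58, 1.05 and 1.94 tags in the male mice and 5.87, 7.26, 11.2 and 0 tags in the female mice. Most of these values are worth fewer than 3 reads or little more, so differences between mice were not detectable at this depth. Within the bounds of Clec4e (chr6:123281789-123289871) there was no region. The nearest region below it was this Clec4d region, 15.5 kb away, and the nearest above it lay 641 kb away.

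**Figure D2:**
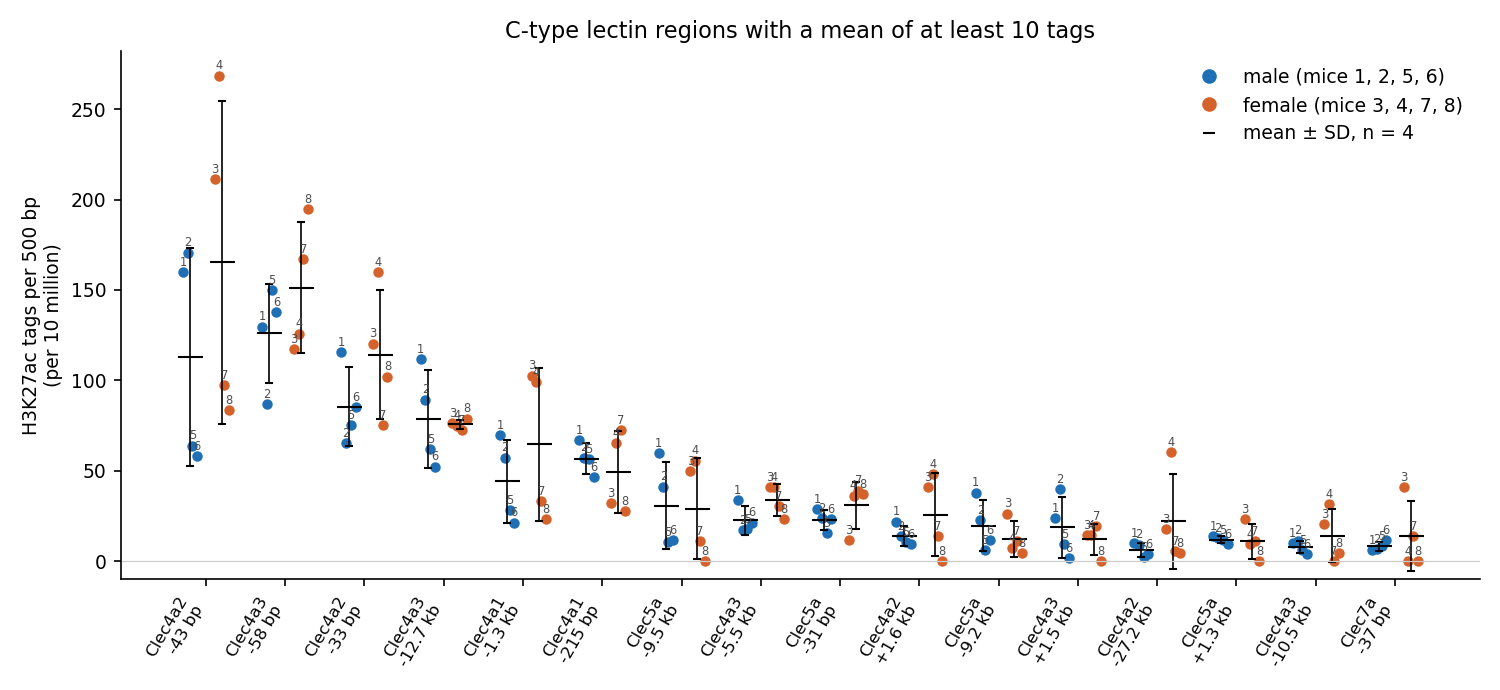
H3K27ac level (tags per 500 bp, linear axis) of the 16 lectin regions with a mean of at least 10 tags, ordered by mean, with 1 point per mouse numbered by mouse, males in blue and females in orange, and bars for mean ± SD (n = 4). At the Clec4a2 region 43 bp from the TSS, the Clec4a1 region at 1.3 kb and the Clec5a region at 9.5 kb, mice 1, 2, 3 and 4 are the highest in their sex, and at the Clec4a3 promoter they are not.

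Ordered by the mean level of their strongest region, the members were Clec4a2 and Clec4a3 (139 tags each), Clec4a1 (54.4 ± 33.3), Clec5a (29.99 ± 24.04), Clec7a (11.0 ± 13.1), Clec12a (7.71 ± 6.37), Clec4d (4.98 ± 3.83) and Clec4n (4.14 ± 5.01 tags, SD, n = 8). Of the neighbours in this order, the ranges of mean ± SD overlapped for Clec4a2 and Clec4a3, Clec4a1 and Clec5a, and Clec5a and Clec7a. They also overlapped for every pair among Clec7a, Clec12a, Clec4d and Clec4n. These ranges leave out that the same 8 mice were measured at every region. Mouse by mouse, the strongest Clec4a1 region was above the strongest Clec5a region in all 8. Summed over all regions of a gene, which depends on how many regions it has, Clec4a3 held 233 to 314 tags in male and 276 to 302 tags in female mice. Clec4a2 held 152 to 308 and 190 to 537 tags, Clec4a1 71.7 to 150 and 51.0 to 165 tags, and Clec5a 46.1 to 146 and 41.8 to 117 tags. Clec7a held 14.0 to 19.9 and 4.64 to 49.9 tags. The range of Clec4a3 was the narrowest of these relative to its level.

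**Figure D3:**
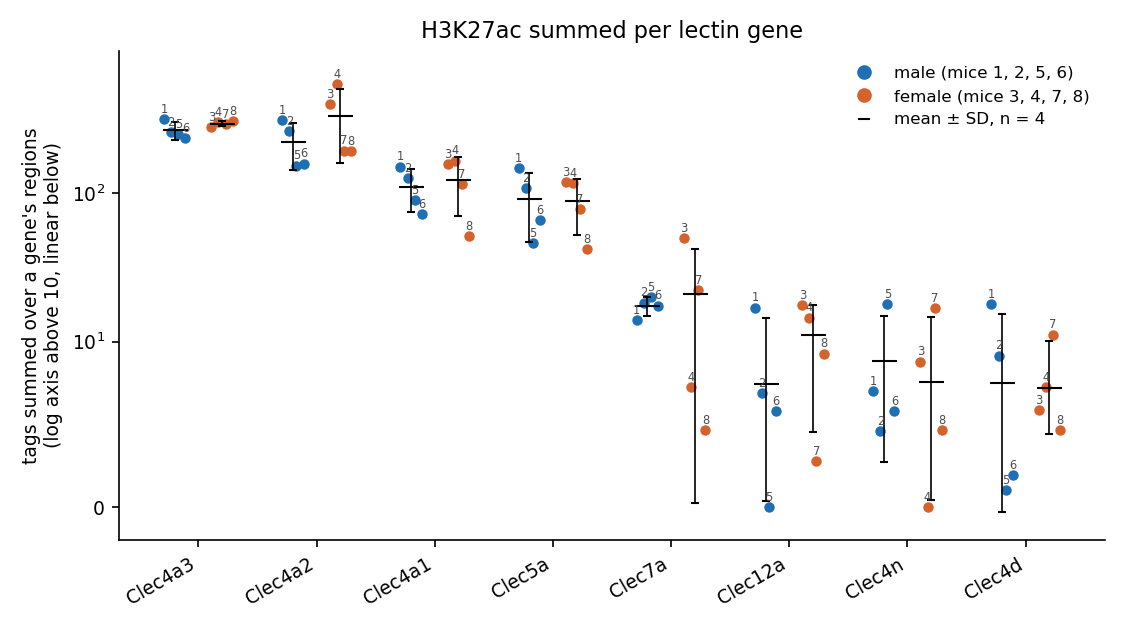
H3K27ac tags summed over all regions of each lectin gene in each of 8 mice (log axis above 10 tags, linear below), males in blue and females in orange, with bars for mean ± SD (n = 4). Clec4a3 stays between 233 and 314 tags in all 8 mice, while Clec4a2 ranges from 152 to 537.

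Between the sexes, no lectin region and no lectin gene total passed the test. Of 16 member regions tested with limma on log2(tags + 1), 0 were called at a Benjamini-Hochberg adjusted p under 0.05, and 0 had an unadjusted p under 0.05. In all regions tested, 1.87% were lower and 0.15% higher in female mice. The edgeR and DESeq2 tests on the recovered reads also called 0 of the 16. The lowest adjusted p by limma, 0.589, was at the Clec4a3 region 5.5 kb before the TSS, named after its values were seen, with a female minus male difference of 0.59 on the log2 scale (95% interval -0.28 to 1.45). At the Clec4a2 region 43 bp from the TSS the male mean was 113 ± 60.3 and the female mean 165 ± 89.5 tags (SD, n = 4 each), a log2 difference of 0.54 (interval -0.43 to 1.51; limma adjusted p = 0.666). At the Clec4a3 promoter the log2 difference was 0.26 (interval -0.31 to 0.83; limma adjusted p = 0.734). The interval of Clec4a2 reaches beyond 1 log2 unit, and that of the Clec4a3 promoter does not.

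Of the 5 gene totals with a mean of at least 10 tags, 0 were called by limma, 0 had an unadjusted p under 0.05, and edgeR and DESeq2 called 0. In all gene totals, 2.4% were lower and 0.228% higher in female mice. The log2 difference was 0.50 for Clec4a2 (interval -0.28 to 1.29; limma adjusted p = 0.530), 0.16 for Clec4a3 and 0.08 for Clec4a1, and -0.25 for Clec7a and -0.03 for Clec5a. The spread between mice in these tests includes any effect of IL-33.

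With IL-33, H3K27ac rose at a distal region of Clec5a and at a distal region of Clec4a2, and no lectin region fell. The authors' deposited table holds regions more than 3000 bp from a TSS, so the promoters have no IL-33 comparison. Of the 32 lectin regions, 19 lie beyond 3000 bp, and the authors' deposited table lists 15 of these, so distance is not its only condition. It gives 7 of the 15 an adjusted p, at Clec4a3 (3), Clec5a (2), Clec4a2 (1) and Clec12a (1). Of these 7, the authors' deposited table had 2 risen and 0 fallen at an adjusted p under 0.05, and of all its tested regions 10.2% risen and 7.99% fallen. Counted by gene, 2 of 4 lectins with a tested region in the authors' deposited table had a risen region and 0 a fallen one, against 19.4% and 20.9% of all genes with a tested region. With 7 regions and 4 genes, 1 call more or less would move these shares widely.

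The Clec5a region 9.5 kb before the TSS had the largest rise of a lectin region in the authors' deposited table, 2.13 on the log2 scale (SE 0.44, adjusted p = 3.5e-05). The vehicle value in the authors' deposited table was 2.06 and the IL-33 value 4.73, both log2. The overlapping region at 9.2 kb had 1.24 in the authors' deposited table (adjusted p = 0.0920), which did not pass the threshold for a call. Within the bounds of Clec5a the authors' deposited table had 1 of 2 tested regions risen. That region carries the name Olfr460 and is not counted among the lectin regions. The per-mouse values of the 9.5 kb region given before, 41.2 to 59.9 tags in mice 1, 2, 3 and 4 and 0 to 11.6 tags in the others, cannot be assigned to a treatment from the labels.

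The Clec4a2 region lies 27.2 kb before the TSS, between genes (chr6:123095223-123095723). It held 9.98, 9.16, 2.10 and 3.88 tags in males 1, 2, 5 and 6 and 17.6, 60.5, 5.57 and 4.64 tags in females 3, 4, 7 and 8. These values rest on 56 reads, and mice 5, 6, 7 and 8, with 2, 2, 2 and 1 reads, were below the floor of 3 reads. Mice 1, 2, 3 and 4 all lay above mice 5, 6, 7 and 8, and mouse 4 stood far above the rest. The female mean was 22.1 ± 26.3 tags (SD, n = 4) with mouse 4 and 9.27 ± 7.23 tags (SD, n = 3) without it. The authors' deposited table gives this region a rise of 1.83 on the log2 scale (SE 0.59, adjusted p = 0.0161), from a vehicle value of 1.54 to an IL-33 value of 3.32. That value could not be recomputed without mouse 4, since the groups of the authors' deposited table are not named.

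The other tested regions did not pass the threshold in the authors' deposited table, and all had a positive log2 fold change. The authors' deposited table gives 1.48 for the Clec4a3 region at 10.5 kb (SE 0.59, adjusted p = 0.0636) and 1.37 for the Clec12a region at 13.2 kb (SE 0.64, adjusted p = 0.131). For the Clec4a3 regions at 12.7 kb and 5.5 kb, named so that every tested region is given, the authors' deposited table has 0.48 (adjusted p = 0.255) and 0.45 (adjusted p = 0.511). The 8 regions listed without an adjusted p ranged from -0.02 to 1.04 in the authors' deposited table, at Clec4a1, Clec4a3, Clec4d, Clec5a and Clec7a. The lowest p-values of Clec4a1, Clec4d and Clec7a in the authors' deposited table were at a Clec4a1 region 13.2 kb after the TSS (1.04, unadjusted p = 0.125), a Clec4d region 9.12 kb before it (0.84, unadjusted p = 0.1997) and the Clec7a region at 4.16 kb (0.24, unadjusted p = 0.712). In the authors' deposited table the median change was 1.37 on the log2 scale over the 7 tested lectin regions and -0.01 over all 40352 tested regions. Of all 15 listed lectin regions 14 had a positive value in the authors' deposited table, and of all listed regions, whose median was -0.02, 49.1% did. Of these 15, however, 7 came from the IL-33 peak set only (6 of them positive), a set that leans to positive values, with 68.0% positive over all its regions listed in the authors' deposited table. The other 8, found in both peak sets, were all positive in the authors' deposited table, beside 46.1% of all listed regions of both sets. The regions of a gene share libraries and neighbourhood and are not independent of each other.

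**Figure D4:**
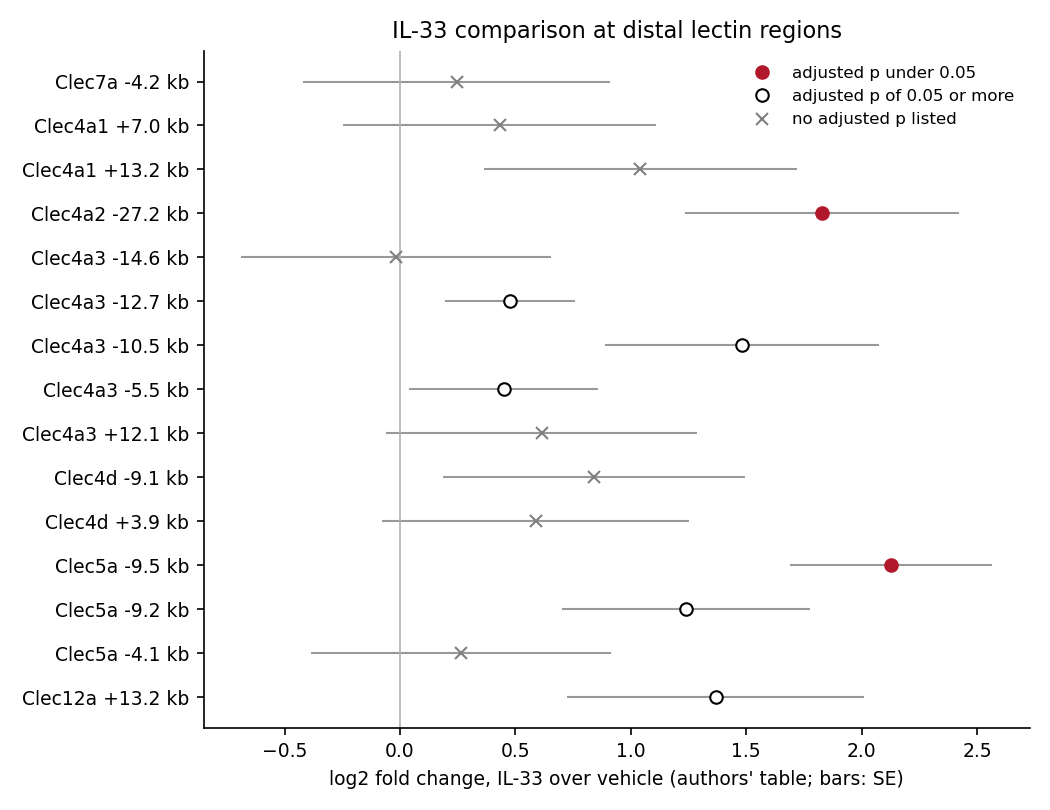
Log2 fold change of H3K27ac, IL-33 over vehicle, with its SE, at the 15 lectin regions listed in the authors' deposited table, all more than 3000 bp from a TSS, marked by whether an adjusted p is listed and whether it is under 0.05. The Clec5a region at 9.5 kb (2.13) and the Clec4a2 region at 27.2 kb (1.83) are the called ones, and 14 of the 15 values lie above 0.

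The authors' peak sets, which also cover promoters, gave a second description of the lectin regions. It was not established here that these sets were called from the 8 H3K27ac libraries. A Clec4a2 region in the IL-33 set only, 6.23 kb before the TSS, held 2 reads over the 8 libraries together. Of the 32 lectin regions, 19 were in the peak sets of both IL-33 and vehicle, 13 in that of IL-33 only (40.6%) and 0 in that of vehicle only. Over all regions, 18.8% were in the IL-33 set only and 8.86% in the vehicle set only. All 3 Clec7a, both Clec4n and both Clec12a regions were in both sets. The regions in the IL-33 set only were 4 each of Clec4a1 and Clec4a3, 2 each of Clec4a2 and Clec4d and 1 of Clec5a, among them the Clec4a1 region 1261 bp before the TSS. The share depended on level: it was 56.2% of the 16 lectin regions with a mean under 10 tags and 25% of the 16 with a higher mean, against 24.9% and 12.96% of all such regions. These subsets were chosen after the data were seen, and the 13 regions lie close together, so no test was made.

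In a list of 22 signalling genes around the lectin receptors, more genes had a risen region than a fallen one in the authors' deposited table. Of the 22 genes, 20 had a region tested in the authors' deposited table, and of these 10 had only risen regions, 4 only fallen ones, 2 both and 4 neither. The authors' deposited table had 36 risen and 11 fallen regions among the 227 tested for this list, beside 10.2% and 7.99% of all regions, and a median log2 change of 0.09, beside -0.01 over all regions. Per gene, 12 of 20 had a risen and 6 of 20 a fallen region in the authors' deposited table, beside 19.4% and 20.9% of all genes, whose numbers of tested regions differ from those of these genes. The 4 rises with the lowest adjusted p in the authors' deposited table include Ptpn6 (1.57, adjusted p = 2.7e-11), the phosphatase of inhibitory receptors, and the Src-family kinases Src (1.93, adjusted p = 1.97e-09) and Lyn (2.17, adjusted p = 7.18e-07). The other is the adaptor Fcer1g, on which Clec4n, Clec4d and Clec4e rely, where the authors' deposited table had both tested regions risen, by 2.28 at the one with the lowest adjusted p (3.5e-07). At Syk the authors' deposited table had 5 of 12 tested regions risen, by 2.21 at the region with the lowest adjusted p (7.24e-06). At Ptpn6, Src and Lyn it had 2 of 4, 5 of 8 and 5 of 10 tested regions risen. Falls in the authors' deposited table had their lowest adjusted p-values at Inpp5d, Plcg2, Nfatc1 and Bcl10. At Inpp5d, a lipid phosphatase, it had 5 of 42 tested regions fallen and 1 risen (-0.74 at the lowest adjusted p, 0.000248). At Plcg2, the phospholipase downstream of Syk, it had 1 of 22 fallen (-0.81, adjusted p = 0.00439). At the transcription factor gene Nfatc1 it had 2 of 23 fallen (-1.01 at the lowest adjusted p, 0.00507). The authors' deposited table gives the only tested region of Bcl10 -1.32 (adjusted p = 0.0291) and 1 of 6 at Malt1, named after its values were seen, -1.06 (adjusted p = 0.0356). Tyrobp, the adaptor of Clec5a, did not pass in the authors' deposited table (0.37, adjusted p = 0.0766), and Card9 had no tested region.

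Among other genes with a C-type lectin domain, calls in either direction were about as frequent as among all genes. Of 49 such genes 17 had a region tested in the authors' deposited table, with 3 rising only, 4 falling only and 10 neither, beside 19.4% of all genes with a rise and 20.9% with a fall. At Cd72, an inhibitory lectin, the authors' deposited table had 2 of 2 tested regions risen, by 2.83 at the lowest adjusted p (1.98e-15). At Clec2d, a ligand of an NK cell receptor, it had 1 of 3 risen, by 2.97 (adjusted p = 1.35e-05). Klrb1b, an inhibitory NK receptor gene, had 2 of 14 tested regions fallen in the authors' deposited table (-2.39 at the lowest adjusted p, 5.67e-05). Clec2h had 2 of 2 fallen there (-1.89 at the lowest adjusted p, 0.000143). Over the 67 tested regions of these other lectin genes the authors' deposited table had a median of -0.30. In the authors' deposited table the 24 tested regions of monocyte markers held 0 rises and 1 fall, and the 9 of neutrophil markers 0 rises and 1 fall, beside 10.2% and 7.99% of all regions. The authors' deposited table also had 15 rises and 29 falls among the 224 regions of microglia markers, and among the 30 of border-associated macrophage markers 2 rises and 5 falls. The part of other myeloid cells in the rises at Clec5a and Clec4a2 was not tested.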

How the data were processed

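The microglia were taken with a Percoll gradient and flow sorting, per the labels' protocols. Bowtie2 and HOMER were used with mm10 (GRCm38), per the submitters' processing notes (versions: not given in the sources used here). A first table of the authors holds a normalised signal, HOMER tags per 500 bp region scaled to 10000000 tags per library, with nearest gene, TSS distance and peak set, per the file headers. Whole reads were recovered for 100% of the values, within 0.01 read. The second deposited table gives a log2 fold change and log2 group values for IL-33 and vehicle, a mean level, standard error and test statistic as scores, and p-values with adjusted p-values, per the file headers. By its name it is anchored on ATAC-seq, a measure of open chromatin, and which tool made it is stated nowhere in these sources. Its 15034 regions with no adjusted p have mean levels of at most 2.73. Across its 55386 regions, not independent of each other, the IL-33 minus vehicle gap and the log2 fold change had a Pearson r of 0.979, so a positive value means higher with IL-33. Standard errors in the authors' deposited table reach at most 0.678.

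Columns were matched to mice by their headers, which name no treatment, and the inputs of the 4 male mice were not analysed here. Each replicate is a separate mouse. Sex was tested with limma 3.58.1 (R 4.3.3) on log2(tags + 1), over regions or gene totals with a mean of at least 10 tags, with Benjamini-Hochberg adjustment over all of them; edgeR 4.0.16, DESeq2 1.42.0, other scalings, pseudocounts and minimums, and each library left out, were alternatives. The code was tested on simulated data. All member genes are named; per gene, the text gives the promoter, the strongest and the called regions and the one with the lowest p in the authors' deposited table, and from other lists the lowest adjusted p. A marker gene of the monocyte list is not reported here. Members and lists were chosen with earlier results of these data known. Gene bounds and promoters are from RefSeq (GRCm38.p6). Floors cover counting error only, since no molecular identifiers are described.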

Additional observations from a re-analysis of the deposited data

Results flagged for a closer look

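Of the 42 groups of 4 libraries examined, over the lectin regions and gene totals, 1 held a library far from the other 3. At the Clec5a promoter region (chr6:40585586-40586086) female mouse 3 had 11.7 tags, while female mice 4, 7 and 8 had 36.3, 39.0 and 37.1. The gap to the nearest value was 0.900 of the range of the 4, above Dixon's 95% critical value. Chance flags about 1 in 20 groups. The value of mouse 3 rests on 4 reads.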

How the results depend on the processing

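At an adjusted p under 0.01 in the authors' deposited table, the count of called lectin regions went from 2 to 1 and that of lectins with a called region from 2 to 1, since Clec4a2 (log2 fold change 1.83) no longer passed; the stricter threshold itself is the cause. Both counts stayed at 2 with a log2 fold change of at least 1 required, and with Benjamini-Hochberg adjustment over every p-value of the authors' deposited table (Clec5a 4.8e-05, Clec4a2 0.0219). The count of lectins also stayed at 2 with regions within 50000 bp only. Neither the fold change nor the distance condition could lower a count. The called regions have log2 fold changes of 2.13 and 1.83 in the authors' deposited table and lie 9.5 and 27.2 kb from the TSS. Between the sexes, 0 lectin regions and 0 gene totals were called under each alternative, and leaving out each library gave 0 to 0. The lowest adjusted p of a lectin was 0.244 to 0.749 over 16 alternatives for regions and 0.392 to 0.754 over 18 for gene totals. With no minimum level, 2 lectin regions had an unadjusted p under 0.05 by limma. The mean level of each member's strongest region moved by less than 1 SD with male or with female libraries alone. With 4 libraries per sex and the SD taken over all 8, it could not move further. This comparison therefore could not reveal a dependence on sex. The share of regions in the IL-33 peak set only was 40.6%, and 25% among those with a mean of at least 10 tags, an alternative chosen after seeing the data; the cause was not tested. No paired analysis was possible because the male and female H3K27ac libraries share no mouse number, and the inputs that share numbers with the male libraries have no values. Depth limits Clec7a, Clec12a, Clec4d and Clec4n most, with 38 to 87 reads per gene over 8 libraries.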

Other observations

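Genes in the wider neighbourhood of the lectin genes on chromosome 6 were counted in the authors' deposited table too. Most of them, with every one that had a rise, lie outside the stretches of lectin genes given before. Clec4a4 and Clec4b2, which lie inside, are not in this list. Of 30 neighbours 13 had a region tested in the authors' deposited table, and 6 of these had only rises, 1 only falls and 6 neither, beside 19.4% of all genes with a rise and 20.9% with a fall. The rises in the authors' deposited table include 1 of 5 tested regions of C3ar1, the receptor for complement fragment C3a (2.47, adjusted p = 7.88e-07). They also include 2 of 4 of Necap1, a factor of clathrin-coated vesicles (1.87 at the lowest adjusted p, 8.14e-05). Both genes lie beside the Clec4 genes. The median log2 fold change over the 44 tested neighbour regions in the authors' deposited table was 0.27. The list shares 8 genes with that of other lectin genes, among them 2 of its 6 risen genes (Clec2d and Olr1) and its fallen gene, Clec2i. Clec9a, in the stretch between Clec12a and Clec7a, also in both lists, did not pass in the authors' deposited table (1.10, adjusted p = 0.203).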
